A study of Mus musculus with 17 samples.

Results

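The genes described here are the 10 listed members of the Myc, Max and Mxd network: Myc, Mycn, Mycl, Max, Mxd1, Mxd3, Mxd4, Mxi1, Mnt and Mga. They were chosen by symbol from 18836 genes listed in at least 1 of 17 RNA-seq libraries of mouse neural retinal progenitor cells (mNRPCs), which are cells cultured from the neural retina of adult C57BL/6 mice. One library was the day 0 control, whose label gives no treatment. The study describes it in 1 place as cells in BM and in another as cells before treatment, so values relative to day 0 are given without a statement of its medium. The other 16 were 1 library each of cells in basic medium alone (BM), BM with bFGF (B), BM with the GSK-3 inhibitor CHIR99021 (C) and BM with both (BC), taken on days 1, 3, 5 and 7. According to the methods, the cells had been established and grown in BM containing both factors before these treatments, so all groups share that history. There was 1 library of each treatment and day, and nothing in the labels says whether the libraries of a day came from 1 parent culture.

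MYC, MYCN and MYCL are transcription factors that bind DNA only as dimers with MAX, at E-box sites such as CACGTG, and activate genes for growth, ribosome production and metabolism. The MXD proteins (here Mxd1, Mxd3, Mxd4 and Mxi1, also called Mxd2) and MNT compete for the same partner and the same sites, and recruit SIN3 and histone deacetylases to repress transcription. MGA is a large MAX partner that works in a Polycomb complex called PRC1.6. In many tissues Myc accompanies proliferation, while Mxd1 and Mxd4 are known from cells that leave the cycle or differentiate, and Mxd3 is known from S phase.

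Depth was even, with total expected counts of 17571973 to 19428744 per library (median 18274989). Of the retinal progenitor markers, Pax6, Six3, Sox2, Nes and Hes1 were at 4.63 FPKM or more in every library (FPKM, fragments scaled by transcript length and library total), whereas Six6 and Rax were at 0.07 FPKM or less in all libraries. All 6 photoreceptor markers stayed under 1 FPKM. The 5 fibroblast and pericyte markers summed to 14.99 to 159.53 FPKM without bFGF and to 6.13 to 34.43 FPKM with it, led by Pdgfrb (up to 114.64 FPKM) and Col1a1 (up to 45.19 FPKM), and Rgs5 stayed at 0.1 FPKM or less. The 9 retinal progenitor markers summed to 149.46 to 403.9 FPKM without bFGF and to 96.13 to 206.6 FPKM with it. The ranges of both sums lay lower with bFGF and overlapped between the groups, and their part in the members' differences was not tested. In bulk RNA, fewer cells of a type and less RNA per cell cannot be told apart.

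CACGTG is the site at which MAX dimers bind, so the promoter windows of the members were read for it on both strands, where it reads the same. RefSeq windows of 300 bases, from 250 before to 50 after each start (GRCm38.p6), were at hand for 9 of the 10 members, all but Myc, as 11 windows because Mxi1 has 3. The E-box lay in the windows of 3 members, Max, Mxd4 and Mnt, and in 7.15% of all 32851 windows of that length. These are the sequences shown, 5′ to 3′ on the gene's strand up to the start site or the end of the E-box, with the E-box in capitals. In Mxd4 it began at position -219 from the start, in Mnt at -123, and in Max at -3, so that it spanned the start. A match is a run of letters and no evidence of binding.
Max, chr12:76962246-76962498, minus strand: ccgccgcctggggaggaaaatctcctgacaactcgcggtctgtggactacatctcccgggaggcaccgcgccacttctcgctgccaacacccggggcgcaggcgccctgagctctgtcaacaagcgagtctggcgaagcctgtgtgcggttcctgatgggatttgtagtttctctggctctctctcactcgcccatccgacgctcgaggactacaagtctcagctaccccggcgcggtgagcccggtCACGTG
Mxd4, chr5:34187711-34187960, minus strand: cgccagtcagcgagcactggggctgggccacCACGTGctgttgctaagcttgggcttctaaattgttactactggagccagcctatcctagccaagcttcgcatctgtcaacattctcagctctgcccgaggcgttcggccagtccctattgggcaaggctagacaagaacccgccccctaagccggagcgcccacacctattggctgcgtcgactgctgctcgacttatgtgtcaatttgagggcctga
Mnt, chr11:74830674-74830923, plus strand: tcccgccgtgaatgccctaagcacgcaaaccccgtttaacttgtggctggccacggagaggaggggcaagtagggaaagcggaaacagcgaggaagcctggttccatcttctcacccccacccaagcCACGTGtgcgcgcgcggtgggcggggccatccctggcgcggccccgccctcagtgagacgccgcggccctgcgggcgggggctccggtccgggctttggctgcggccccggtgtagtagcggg

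The E2F motif (TTTCCCGC or TTTGGCGC, both strands) was in 1.56% of all windows and, among the members, in that of Mycn, which held it at 2 places. The TCF/LEF motif (CTTTGAT or CTTTGAA) was in 8.65% of all windows and, among the members, also in that of Mycn. The AP-1 motif (TGACTCA) was in 5.2% of all windows and in none of the members' windows.

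Among the activators, Myc carried nearly all of the signal. Its FPKM was 94.0% to 99.7% of the summed FPKM of Myc, Mycn and Mycl in the 17 libraries. Mycn, which is prominent in embryonic neural and retinal progenitors, was nearly absent. It was not listed in 7 libraries and had at most 4 reads (0.08 FPKM, day 0) in the other 10, so no comparison was made for it. Mycl, the third paralogue, was low throughout, at 1.11 FPKM on day 0. On day 1 it was at 1.61 FPKM in BM, 1.45 in B, 1.4 in C and 1.87 in BC. By day 7 it was at 0.64 FPKM in BM, 0.13 in B, 0.36 in C and 0.12 in BC. Its highest values were thus all on day 1, in every medium. With a mean of 0.666 FPKM over days 1 to 7 it did not reach the mean of 1 FPKM required for testing, nor did Mycn, and 8 of the 10 members were tested. A fit with no filter on low values called Mycl lower with bFGF on day 7. That fit called 5130 of 18700 genes lower on that day. The Mycl call rested on few reads, with expected counts of 39 (BM) and 22 (C) against 8 for each library with bFGF.

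Myc (chr15:61985391-61990374, plus strand, GRCm38) stood at 78.7 FPKM on day 0. In BM it was at 48.5, 11.7, 12.4 and 19.0 FPKM on days 1, 3, 5 and 7. In C it was at 22.6, 8.79, 6.71 and 11.2 FPKM on the same days. Without bFGF, Myc was therefore below its day 0 level in all 8 libraries, and lowest on day 3 in BM and day 5 in C. In B it was at 87.5, 48.5, 41.0 and 45.4 FPKM, and in BC at 52.9, 18.5, 31.6 and 37.2 FPKM. B on day 1 was the only library of the 16 above day 0. On each day both libraries with bFGF were above both libraries without it. In matched pairs the fold ran from 1.80 (B over BM, day 1) to 4.71 (BC over C, day 5), and the groups were closest on day 1, with BC at 52.9 FPKM and BM at 48.5.

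**Figure D1:**
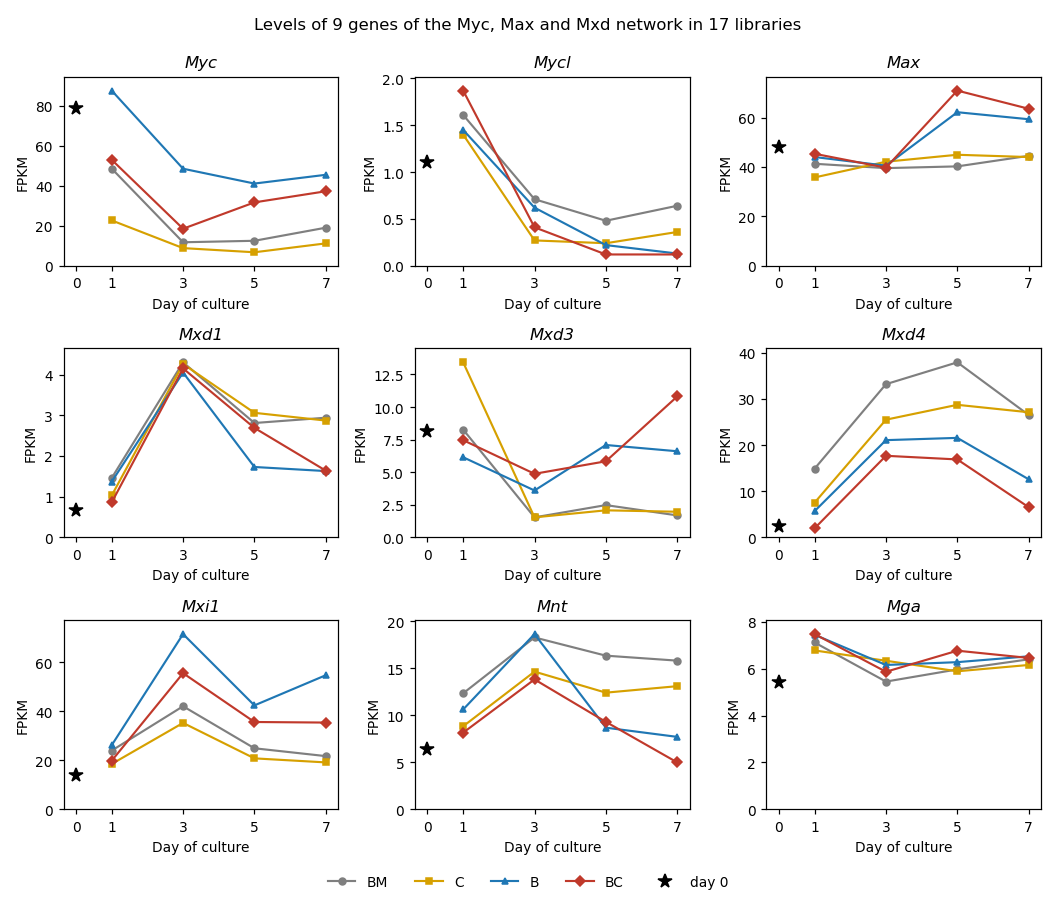
FPKM (vertical axis, from 0) against day of culture (horizontal axis) for 9 of the 10 genes, Mycn being left out at 0.08 FPKM or less. Each point is 1 library, lines join the libraries of 1 medium, and the star is the day 0 library. In these FPKM, with no further scaling between libraries, Myc lies higher and Mxd4 lower in B and BC than in BM and C on every day. Mxi1 lies higher in B and BC on days 3, 5 and 7.

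Max, the partner shared by all the others, varied by 1.98-fold, from 35.8 FPKM in C on day 1 to 71.0 FPKM in BC on day 5. It was at 48.1 FPKM on day 0. Without bFGF it stayed between 35.8 and 44.9 FPKM in 8 libraries. With bFGF it was at 44.0 and 40.5 FPKM in B, and 45.4 and 39.7 FPKM in BC, on days 1 and 3, inside or next to that range. On days 5 and 7 it was at 62.2 and 59.4 FPKM in B and at 71.0 and 63.6 FPKM in BC, above every library without bFGF. Part of this lay in the length the authors used for FPKM, which depends on which transcripts carry the reads. That length was 1849 bases in BM and 1514 bases in B on day 5, and the expected counts were 1354 in BM and 1653 in B.

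The antagonists did not move as 1 group. Mxd4 was the one with the widest range, 19.1-fold between its lowest and highest library. It was at 2.45 FPKM on day 0. In BM it was at 14.9, 33.2, 37.9 and 26.5 FPKM on days 1, 3, 5 and 7, and in C at 7.54, 25.5, 28.7 and 27.1 FPKM. In B it was at 5.70, 21.1, 21.6 and 12.6 FPKM, and in BC at 1.98, 17.7, 16.9 and 6.55 FPKM. BC on day 1 was the only library below day 0, and on every day both libraries with bFGF were below both without it in FPKM. On day 5 that order depended on the scaling between libraries. Divided by the TMM factors described below, Mxd4 was at 26.8 in B and 26.1 in C on that day. Reads of Mxd4 could include some of an antisense gene, Gm42846, whose exons overlap it.

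Mxi1 (chr19:53310518-53375810, plus strand) was the most abundant antagonist with bFGF, at 50.6% to 65.7% of the summed FPKM of the 5 antagonists, against 29.5% to 43.4% without bFGF. It was lowest on day 0, at 13.8 FPKM. In BM it was at 23.9, 42.0, 24.9 and 21.7 FPKM on days 1, 3, 5 and 7, and in C at 18.5, 35.2, 20.8 and 19.1 FPKM. In B it was at 26.1, 71.5, 42.4 and 54.7 FPKM, and in BC at 19.8, 55.5, 35.6 and 35.4 FPKM. All 4 media peaked on day 3. On days 3, 5 and 7 both libraries with bFGF were above both without it, while on day 1 the groups overlapped. Mxi1 shares 201 bases, exons included, with Gm10197 on the other strand, so its reads could include some of that gene.

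Mxd3 turned its order around between days 1 and 3. It was at 8.14 FPKM on day 0. On day 1 it was at 8.27 FPKM in BM, 6.15 in B, 13.4 in C and 7.46 in BC, so both libraries with bFGF were lower. In the edgeR test by day given below, this day 1 difference did not pass (log2 fold change -0.58, adjusted p = 0.137). On day 3 it was at 1.54 FPKM in BM and C, 3.60 in B and 4.88 in BC. On day 5 it was at 2.48 FPKM in BM, 7.09 in B, 2.08 in C and 5.84 in BC. From day 3 on, both libraries with bFGF were thus above both without, including day 7 with 1.69 FPKM in BM, 6.61 in B, 1.97 in C and 10.8 in BC. Its expected counts were small, 35.2 to 324, and were not whole in any library, so some of its reads were shared with other features. Mxd3 (chr13:55325168-55329823, minus strand) shares 105 bases, exons included, with Prelid1 on the other strand, and the use of strand in counting is not given in the sources used here.

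Mxd1 had the lowest mean FPKM of the 5 antagonists (2.44 over 17 libraries), although Mxd3 lay below it in some libraries. It was at 0.68 FPKM on day 0. On day 1 it was at 1.46 FPKM in BM, 1.37 in B, 1.03 in C and 0.86 in BC. On day 3 it reached 4.30 FPKM in BM, 4.05 in B, 4.26 in C and 4.15 in BC, which was the highest value of each medium. On day 5 it was at 2.81 FPKM in BM, 1.73 in B, 3.06 in C and 2.69 in BC. On day 7 it was at 2.94 FPKM in BM, 1.63 in B, 2.87 in C and 1.64 in BC. The media were thus nearly equal on day 3, and the bFGF libraries were lower on day 7.

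Mnt, which is known to be expressed in both cycling and resting cells, was at 6.42 FPKM on day 0. In BM it was at 12.3, 18.3, 16.4 and 15.8 FPKM on days 1, 3, 5 and 7, and in C at 8.83, 14.7, 12.4 and 13.1 FPKM. In B it was at 10.6, 18.6, 8.68 and 7.70 FPKM, and in BC at 8.15, 13.8, 9.30 and 4.98 FPKM. Up to day 3 the groups with and without bFGF overlapped, and on days 5 and 7 both bFGF libraries were below both others in FPKM. Divided by the TMM factors described below, Mnt on day 5 was at 11.4 in BC and 11.3 in C, so the groups then overlapped on that day. BC on day 7 was the only library below day 0.

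Mga varied least of the 8 genes tested below, from 5.44 FPKM on day 0 to 7.48 FPKM in BC on day 1. In the 8 libraries without bFGF its lowest, median and highest FPKM were 5.45, 6.25 and 7.12, and in the 8 with bFGF they were 5.87, 6.50 and 7.48. Its expected counts, 1289 to 1968, were not whole in any library.

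The first comparison asked which members differed with bFGF over days 1 to 7. It used edgeR's quasi-likelihood test on expected counts, with bFGF, CHIR99021 and day as terms, and adjusted p-values over all 11272 genes tested (threshold 0.05). Since no condition had a replicate, the error came from departures from additive effects, and the p-values do not measure the spread between cultures. Of the 8 members tested, 5 were higher with bFGF (Myc, Max, Mxd3, Mxi1 and Mga) and 1 was lower (Mxd4). Across all genes tested, 34.6% were higher and 33.9% were lower, so a call with bFGF was common.

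Myc had the largest difference, a log2 fold change of 1.82 (SE 0.18, adjusted p = 3.03e-05). Among the antagonists, Mxd3 was higher by a log2 fold change of 1.43 (SE 0.40, adjusted p = 0.00657) and Mxi1 by 0.97 (SE 0.16, adjusted p = 0.000442). Mxd4 had a log2 fold change of -0.82 (SE 0.19, adjusted p = 0.00231). Max had a log2 fold change of 0.47 (SE 0.12, adjusted p = 0.00396) and Mga one of 0.34 (SE 0.08, adjusted p = 0.00263). Mnt, at -0.22 (SE 0.10, adjusted p = 0.0727), and Mxd1, at -0.07 (SE 0.13, adjusted p = 0.622), did not pass the threshold. Of the 5 antagonists, 2 were thus higher, 1 was lower and 2 were not called.

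The scaling between libraries bears on the smaller of these values. The TMM factors were 0.755 to 0.816 in B and BC on days 5 and 7 and 1.01 to 1.13 in the other 12 libraries. With library totals alone, the median log2 fold change of all genes with bFGF was -0.29 instead of -0.00, and 19.9% of genes were higher and 50.6% lower. On that scale, Myc (1.53), Mxi1 (0.68), Mxd3 (1.14) and Mxd4 (-1.12) kept their calls and directions. Max (0.18, adjusted p = 0.0541) and Mga (0.05, adjusted p = 0.459) lost theirs, and Mnt was lower (-0.51, adjusted p = 0.00944). The sign of each of the 8 members was the same with and without TMM.

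In the 8 within-day pairs of libraries that differ only in bFGF, Myc and Mxi1 were higher in 8 of 8 on the log2(FPKM + 1) scale, as were 10.6% of all genes tested. Mxd4 and Mxd1 were lower in 8 of 8, as were 26.1% of all genes. The mean difference of Myc on that scale was 1.45 ± 0.45 (SD over the 8 pairs, which share days), from 0.84 to 2.08. For Mxd1 it was -0.25 ± 0.24, from -0.58 to -0.03, so its smallest pair was near 0. By limma on that scale the median of all genes with bFGF was -0.252, next to the mean of -0.254 for Mxd1.

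Taken 1 day at a time, with a mean for each day with and without bFGF and CHIR99021 as a term, the calls grew in number. On day 1, Myc was higher (log2 fold change 1.10, SE 0.22, adjusted p = 0.0113) and Mxd4 lower (-1.47, SE 0.29, adjusted p = 0.00979), while 6.21% of all genes were higher and 4.46% lower. These calls of day 1 were fragile. Myc lost its call without the C, B or BC library of day 1, Mxd4 lost it without the BM or BC library, and a fit of the 4 libraries of day 1 alone called neither. Calls over all genes fell too, from 1203 to 201, 375, 359 and 145 without the BM, C, B or BC library of day 1. The fit of the 4 libraries alone called 1079 of 10939 genes. On day 3, 3 of 8 members were higher (Myc 1.70, Mxi1 0.80 and Mxd3 1.55) and none was lower, against 25.4% and 25.0% of all genes. The unadjusted p of Mxd4 on day 3, the smallest of the members not called, was 0.0625.

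On day 5, 5 of 8 members were higher and none lower, against 37.2% and 38.6% of all genes. These were Myc (log2 fold change 2.43), Mxd3 (1.95), Mxi1 (1.23), Max (0.83) and Mga (0.59), while Mnt was at -0.21 and Mxd4 at -0.34 without passing the threshold. On day 7 the same 5 genes were higher and both Mxd4 (-1.01, SE 0.25, adjusted p = 0.00288) and Mnt (-0.67, SE 0.13, adjusted p = 0.000373) were lower, against 38.8% and 39.6% of all genes. Mxd3 had the largest value of that day, 2.77 (SE 0.27, adjusted p = 1.33e-06), above Myc at 2.06 (SE 0.23, adjusted p = 4.9e-06). Mxi1 was at 1.65 (SE 0.10, adjusted p = 2.73e-08). With library totals alone, Mga fell out of the calls of day 5 (0.15) and day 7 (-0.06), where its sign also turned, and Mxd4 (-0.79) and Mnt (-0.65) were lower on day 5 already. On day 7 Mxd1 was then lower too (-0.82, adjusted p = 0.00543), beside a median of all genes of -0.54.

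**Figure D2:**
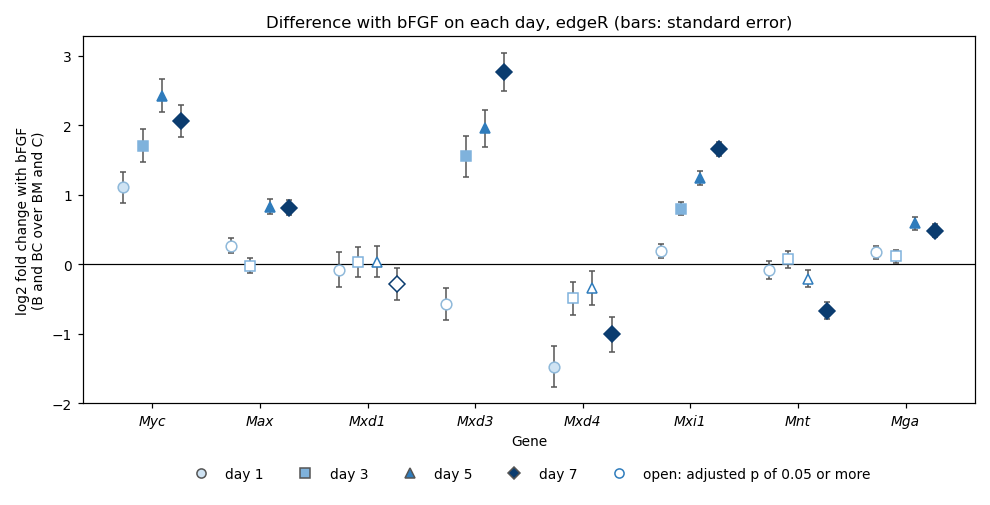
log2 fold change with bFGF (vertical axis; B and BC over BM and C, edgeR) for each of 8 genes (horizontal axis) on days 1, 3, 5 and 7, with bars of 1 standard error. Filled points passed an adjusted p of 0.05. Mxd3 lies at -0.58 on day 1, as an open point, and at 2.77 on day 7, and Mxd1 has no filled point.

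Whether the bFGF difference itself varied between days was tested with the 3 bFGF by day terms. It varied for 6 of 8 members, which is close to the 76.3% of all genes. These were Mxi1 (adjusted p = 1.59e-05), Mxd3 (3.04e-05), Max (0.000652), Mnt (0.0122), Mga (0.0127) and Myc (0.014), all by edgeR. Mxd4 (0.0544) and Mxd1 (0.747) did not pass. Myc lost the call without the BM library of day 1, and Mnt lost it without the BC library of day 7. With library totals alone Myc (0.0694) and Mga (0.486) did not pass, and Mxd4 did (0.0495).

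Over time without bFGF, from day 1 to day 7 in BM and C, Myc fell (log2 fold change -1.22, SE 0.23, adjusted p = 0.000584) and so did Mxd3 (-2.56, SE 0.27, adjusted p = 5.53e-06). Mxd4 (1.30, SE 0.25), Mxd1 (1.20, SE 0.23) and Mnt (0.44, SE 0.12) rose, with adjusted p-values of 0.000689, 0.000757 and 0.0078. Of all genes, 32.3% rose and 31.5% fell. Mnt lost its call without the C library of day 1 or of day 7. Max, Mxi1 and Mga did not pass, at 0.16, -0.05 and -0.17.

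With bFGF, from day 1 to day 7 in B and BC, 5 of 8 members rose and none fell, against 35.8% and 39.5% of all genes. Mxd4 rose most (1.76, SE 0.29, adjusted p = 0.00015), from the lower day 1 level given above. Mxi1 rose by 1.41 (SE 0.10, adjusted p = 1.18e-07), Mxd1 by 1.00 (SE 0.25, adjusted p = 0.00285), Mxd3 by 0.78 (SE 0.24, adjusted p = 0.00938) and Max by 0.70 (SE 0.11, adjusted p = 7.5e-05). Mxd3 lost this call without the B or BC library of day 1 or the BC library of day 7. Myc was at -0.27 (SE 0.22, adjusted p = 0.284). With library totals alone Mxd1 (0.56) and Mxd3 (0.35) did not pass, while Myc (-0.71), Mnt (-0.57) and Mga (-0.29) fell, beside a median of all genes of -0.48.

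The next comparison was with CHIR99021. GSK-3, which it inhibits, is known to phosphorylate MYC protein and mark it for degradation, a step that RNA levels do not show. In the model with bFGF, CHIR99021 and day as terms, edgeR called 0 of 8 members, against 0.0532% of all genes higher and 0.284% lower. At an unadjusted p under 0.05, 3 of 8 members were lower, Myc, Mxd4 and Mnt, and 9.99% of all genes passed in either direction. Myc had a log2 fold change of -0.72 (SE 0.18, adjusted p = 0.133), Mxd4 of -0.55 (SE 0.19, adjusted p = 0.292), Mnt of -0.34 (SE 0.10, adjusted p = 0.227) and Mxi1 of -0.34 (SE 0.16, adjusted p = 0.521). DESeq2 in the same model called Myc (-0.73, adjusted p = 0.0116), with 87 of 11272 genes higher and 194 lower. So did limma on log2(FPKM + 1) (-0.71, adjusted p = 0.0434), with 7 of the 11272 genes higher and 34 lower.

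The pairs showed the same genes on the low side. In the 8 within-day pairs that differ only in CHIR99021, Myc was lower in 8 of 8, as was Mxi1, and so were 7.00% of all genes on the log2(FPKM + 1) scale. For Myc the mean difference was -0.71 ± 0.37 (SD, 8 pairs), from -1.34 (BC against B, day 3) to -0.28 (BC against B, day 7). In FPKM this ran from 48.5 in B to 18.5 in BC on day 3 and from 45.4 to 37.2 on day 7. For Mxi1 it was -0.33 ± 0.14, from -0.62 to -0.17. Mxd4 and Mnt were lower in 7 of 8 pairs each, Mxd4 being higher in C than BM on day 7 by 0.03 and Mnt higher in BC than B on day 5 by 0.09. Max, at 0.04 ± 0.12, and Mga, at 0.01 ± 0.09, lay on both sides of 0. Mxd3 was higher in 5 pairs, lower in 2 and equal in 1.

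**Figure D3:**
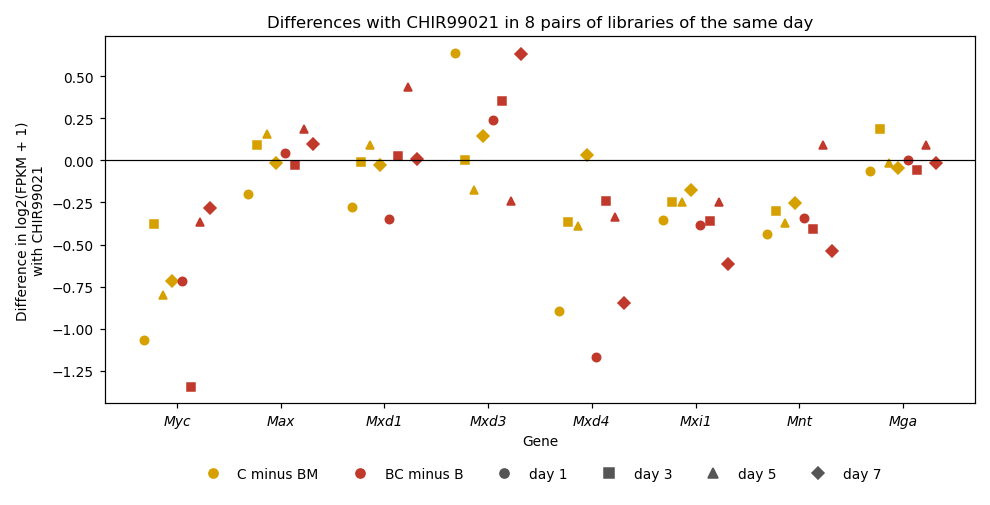
Difference in log2(FPKM + 1) with CHIR99021 (vertical axis) for 8 genes (horizontal axis), each point being 1 within-day pair of libraries, C minus BM or BC minus B. All 8 points of Myc and of Mxi1 lie below 0, while those of Max, Mxd1 and Mga spread around it.

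A model that lets the bFGF difference vary by day, added after the data were seen, left less unexplained variation (biological coefficient of variation 10%, against 24.7%). In it, 4 of 8 members were lower with CHIR99021 and none higher, against 9.79% and 9.72% of all genes. These were Myc (-0.74, SE 0.12, adjusted p = 0.00186), Mxi1 (-0.33, SE 0.05, adjusted p = 0.0015), Mnt (-0.34, SE 0.06, adjusted p = 0.00406) and Mxd4 (-0.51, SE 0.13, adjusted p = 0.0168). The estimates were close to those above, and the calls depended on the model. The change in the CHIR99021 difference with bFGF present passed for 0 of 8 members by edgeR in either model, by DESeq2 and by limma, with 0 of 8 at an unadjusted p under 0.05 in each. Of all genes, 0.00887% were called by edgeR in the first model, 78 genes in the added model, 5 by DESeq2 and 0 by limma. For Myc that interaction was 0.15 (SE 0.37), and for Mxd3 0.04 (SE 0.76), so changes of this size or more were within the error.

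Summed over roles, the FPKM of Myc, Mycn and Mycl was 2.54 times that of the 5 antagonists (Mxd1, Mxd3, Mxd4, Mxi1 and Mnt) on day 0. In BM the ratio was 0.823, 0.125, 0.153 and 0.286 on days 1, 3, 5 and 7, and in C it was 0.488, 0.112, 0.105 and 0.179. In B it was 1.78, 0.413, 0.507 and 0.547, and in BC 1.43, 0.197, 0.452 and 0.629. The activators exceeded the antagonists in 3 libraries, day 0 and the day 1 libraries of B and BC. On each day both libraries with bFGF had a higher ratio than both without it. A ratio within a library is not touched by the scaling between libraries, and it is a ratio of RNA levels, not of proteins.

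**Figure D4:**
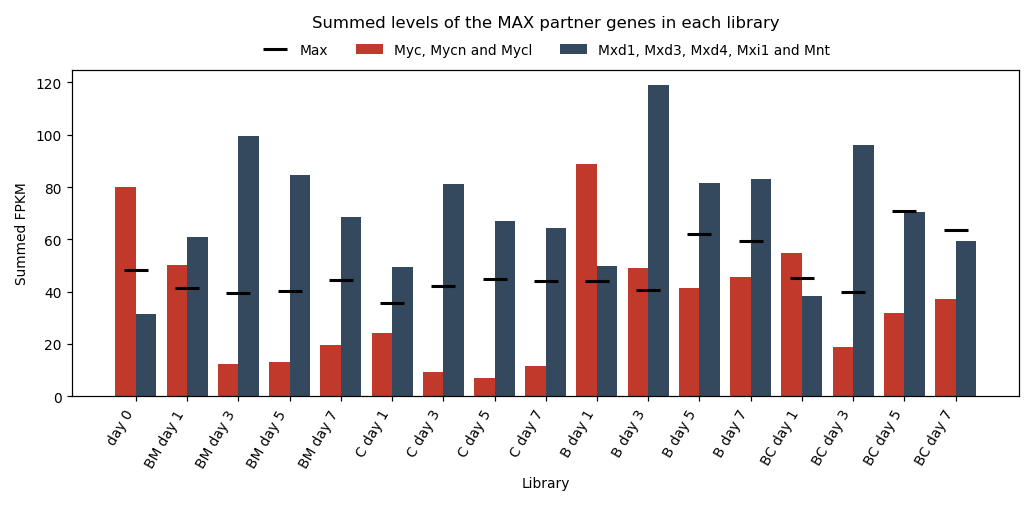
Summed FPKM (vertical axis, from 0) of the activator genes and of the antagonist genes in each of the 17 libraries (horizontal axis), with the FPKM of Max as a black mark. The activator bar is the taller one in day 0, B day 1 and BC day 1 (ratios 2.54, 1.78 and 1.43).

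Other genes of the network were read from lists by role, and the counts over days 1 to 7 stand against 34.6% of all genes higher and 33.9% lower. The lists were chosen with earlier results of these data known, so their counts are a description and no test of MYC activity. Of 30 genes that MYC is known to raise, 29 were tested, 22 were higher with bFGF over days 1 to 7 and 1 was lower, with a median log2 fold change of 0.42 (all genes -0.00). Ldha, which makes lactate (1.54, SE 0.25), and Npm1, a nucleolar chaperone (1.47, SE 0.24), were the highest. Bop1, a ribosome assembly factor, was the lower one (-0.65, SE 0.20), and Pes1, its partner, was the lowest of those that were higher (0.22, SE 0.07). With library totals alone, 12 of the 29 were higher and 4 lower, with a median of 0.13 (all genes -0.29). The number called and the median of this group thus depended on the scaling. The median of all genes moved as well, and the group's median stayed above it on both scales. On day 7, 17 were higher and 3 lower, against 38.8% and 39.6% of all genes.

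Of 9 genes listed as repressed by MYC with MIZ1, 4 were higher with bFGF and 2 lower. The part of MIZ1 in each of these genes was not checked. The higher ones included the cell cycle inhibitor Cdkn1a (2.89, SE 0.47) and the stress gene Gadd45a (2.04, SE 0.50). The lower ones were Cebpa (-1.58, SE 0.60) and Mxd4 itself. With library totals alone, 4 of the 9 were higher and 3 lower. Zbtb17, which encodes MIZ1, was higher (0.81, SE 0.15). Both genes of the parallel MLX arm that were tested, Mlx (0.23) and Mlxip (0.26), were higher, and neither passed with library totals alone. Genes of MYC turnover went both ways, 8 higher and 4 lower of 20 tested, and 6 higher and 8 lower with library totals alone. The mitotic kinase genes Aurka (2.25, SE 0.39) and Plk1 (1.53, SE 0.28) had the highest values. The ubiquitin ligase genes Fbxo32 (-3.33, SE 0.26) and Btrc (-0.66, SE 0.16) had the lowest.

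Of 10 MYC co-activator genes, 4 were higher, led by Ruvbl2 (0.93, SE 0.11) and Wdr5 (0.54, SE 0.08), and 3 lower, led by Bptf (-0.42, SE 0.13) and Kat5 (-0.39, SE 0.14). Of 15 corepressor genes of MXD and MNT, 6 were higher, led by Sap30 (1.02, SE 0.15) and Ing2 (0.85, SE 0.15), and 3 lower, led by Hdac1 (-0.46, SE 0.12) and Arid4a (-0.46, SE 0.13). Of 12 partners of MGA in PRC1.6, 6 were higher, led by Rybp (0.74, SE 0.14) and Yaf2 (0.60, SE 0.14), and 2 lower, Hdac1 and Ring1 (-0.26, SE 0.10). With library totals alone these 3 lists had 2 higher and 6 lower, 3 and 6, and 4 and 3, so their balance followed the scaling. With CHIR99021, edgeR called none of the genes of these lists in the model with bFGF, CHIR99021 and day as terms, and Mxd4 was called in the added model, as given above, where list genes other than the members were not looked at.

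**Figure D5:**
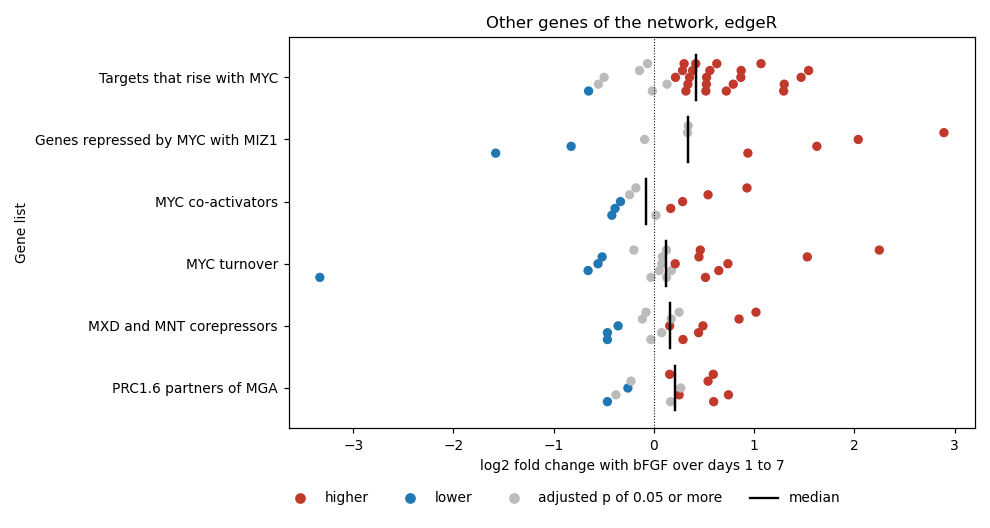
log2 fold change with bFGF over days 1 to 7 (horizontal axis, edgeR with TMM) for the tested genes of 6 lists (vertical axis), each point 1 gene, spread vertically for legibility, with a bar at the median. The genes that rise with MYC lie mostly to the right of 0 (median 0.42), and Fbxo32 lies at -3.33 among the turnover genes.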

How the data were processed

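RNA-seq was analysed in 17 libraries, grouped by the treatment and day in their labels. The authors purified poly-A RNA, sequenced it on the BGISEQ-500 platform and mapped the reads with Bowtie 2. The paper names eXpress for expression values, whereas the submitters' processing notes name RSEM and the build mm10, and versions are not given in the sources used here. The deposited values are an expected count per gene, which need not be whole, and an FPKM, listed from 0.01. A gene not listed was read as 0. The day 0 library entered no test.

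Members and gene lists were chosen with earlier results of these data known. Rounded expected counts went into edgeR's quasi-likelihood test (version 4.0.16, R 4.3.3) with TMM scaling. The 11272 genes whose mean FPKM reached 1 in the 16 libraries of days 1 to 7 were tested, and p-values were adjusted over them after Benjamini and Hochberg, with a threshold of 0.05. Standard errors are the absolute log2 fold change divided by the square root of F. Residual degrees of freedom were 10 with bFGF, CHIR99021 and day as terms, 9 with their interaction, and 7 with a mean for each day with and without bFGF. DESeq2 1.42.0, limma 3.58.1 on log2(FPKM + 1) and log2(FPKM + 0.1), other scalings and filters, and leaving out each library were alternatives. The fits were tested on simulated counts with independent noise. For the model with bFGF, CHIR99021 and day as terms, no simulated bFGF difference varied by day. That simulation therefore does not cover departures from additive effects, from which the error here came. All 10 members were named; of each list, at most 4 genes were, the 2 highest and 2 lowest log2 fold changes with bFGF past the threshold. Of 21 turnover genes, 1, Cip2a, was not matched by symbol. Gene positions came from GENCODE M21 (GRCm38).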

Additional observations from a re-analysis of the deposited data

Results flagged for a closer look

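The difference with bFGF was not the same on days 1, 3, 5 and 7 for 6 of the 8 members tested, by the test of the bFGF by day terms in edgeR, against 76.3% of all genes. Scaled by library totals alone, Myc (adjusted p = 0.0694) and Mga (0.486) did not pass. The adjusted p was 1.59e-05 for Mxi1, whose log2 fold change with bFGF was 0.19 on day 1, 0.80 on day 3, 1.23 on day 5 and 1.65 on day 7. It was 3.04e-05 for Mxd3, at -0.58, 1.55, 1.95 and 2.77 on those days. For Max it was 0.000652, with values of 0.27, -0.02, 0.83 and 0.81. For Mnt it was 0.0122, with values of -0.08, 0.07, -0.21 and -0.67. For Mga it was 0.0127, with values of 0.17, 0.11, 0.59 and 0.48. For Myc it was 0.014, with values of 1.10, 1.70, 2.43 and 2.06. The largest of these differences thus came on day 5 or 7 for all 6 genes.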

How the results depend on the processing

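Of 242 recomputed counts of members called, 233 stayed within 1.5 times the reported count. The count with CHIR99021 was 0 as reported, 1 (Myc) with DESeq2 and with limma at either pseudocount, and 4 in the model of means by day, which was added after the data were seen; the cause was not tested. Over all genes, CHIR99021 calls numbered 38 as reported, 281 with DESeq2 and 2199 in that added model. They numbered 41 with limma on log2(FPKM + 1) and 43 on log2(FPKM + 0.1). The count with bFGF on day 1 was 0 when its 4 libraries were fitted alone, where 1079 of 10939 genes were called. It was 0 to 2 when 1 library was left out. The same ranges over single libraries left out were 6 to 7 with bFGF over days 1 to 7, 5 to 7 for the difference between days, and 4 to 6 over time without bFGF. Mnt gained a call with bFGF, at -0.28 to -0.27, without the BM or B library of day 3 or the BC library of day 5. Of 415 recomputed values of single members, 380 kept their direction and side of the threshold, 14 gained a call, 4 lost one and 8 moved. Another 9 reversed, all of them small differences with CHIR99021 that passed nowhere. Mxd1 turned to 0.13 without day 1. With 1 library left out Mxd1 ran from -0.113 to 0.024, Mxd3 from -0.022 to 0.46 and Mga from -0.033 to 0.051. The log2 ratio of mean FPKM on day 7 of Myc, with bFGF over without, was 1.99 once FPKM was divided by the TMM factors. The 8 values that moved were such day 7 ratios, which shifted with that division by more than their counting error. No paired analysis was possible by replicate number because each treatment and day had 1 library; libraries were paired by day, as a term in each model and in the within-day pairs. Without replicates, no error covers the spread between cultures. Mycn was too low to compare, and Mycl entered the count tests only without a filter on low values.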

Other observations

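The genes whose log2(FPKM + 1) followed a member most closely over the 17 libraries, of 11258 genes with a mean of at least 1 FPKM, are given as a description, since all libraries share 1 time course and their scaling. For Myc these were Mapk6 (r = 0.974), Klra6 (0.956) and D1Ertd622e (0.955). For Mxd3 they were Spc24 (0.974), a kinetochore gene, Neil3 (0.965), a DNA glycosylase gene, and Cdca3 (0.960), a mitotic entry gene. For Mxd4 they were Klc4 (0.964), Pdcd4 (0.964), a translation inhibitor gene, and Zfyve1 (0.945). For Mxi1 they were Pacs1 (0.963), Rasa4 (0.952) and Cdkn1c (0.951), a cell cycle inhibitor gene. For Mxd1 they were Trpm4 (0.964), Clip3 (0.958) and Calcoco1 (0.957), and for Mnt Usp54 (0.953), Rarg (0.947) and Kmt2a (0.945). Max, with 2810403A07Rik (0.920) and Rbm18 (0.920) first and Pfdn2 (0.917) next, and Mga, with Dennd4a (0.879), B4galt7 (0.862) and Leprotl1 (0.817), had the weakest best matches of the 8.

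Among the members themselves, Mxd1 and Mxd4 had the highest correlation (r = 0.838), followed by Mxd1 and Mnt (0.781) and Mxd4 and Mnt (0.745). Mxd3 ran against these 3 antagonists, at -0.796 with Mxd1, -0.788 with Mnt and -0.742 with Mxd4, and with Myc, at 0.726. Myc and Mxi1 stood at 0.032, although both were higher with bFGF.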
